A study of Mus musculus with 6 samples.

Results

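Genes of ribosome assembly and of the nucleolus were followed between 2 dissected regions of the mouse embryonic lung. The list held 40 genes. Of these, 37 were read by 51 probe sets whose single gene symbol in the platform annotation was the gene's own, among 8251 genes so named on the array. Dkc1, Mrto4 and Nob1 were not analysed here, because no probe set carried one of those names as its only symbol. The genes were listed by function, but the list was drawn up after differences between the 2 regions in these same data had been seen. The differences are therefore given as a description, and neither their direction nor the number of calls among the listed genes supports a claim about the group.

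The tissue was lung of Mus musculus embryos at embryonic day E11.5. No strain, genotype or treatment is named in the labels. The branching region was taken from the right and the left lung together, and the non-branching tissue was made up of the main bronchi and a stretch of trachea. Total RNA of each region was measured on 3 arrays (replicates 1 to 3), and each value below is the deposited intensity of a probe set on a linear scale. The labels do not say whether replicates came from separate embryos, so the p-values speak only to the spread over these 6 samples, part or all of which may be technical. Markers of lung tissue were read in both regions, with means in branching and non-branching of 929 and 892 for the epithelial cadherin gene Cdh1, 912 and 772 for the epithelial ligand gene Shh, and 1267 and 3304 for the mesenchymal factor gene Tcf21.

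Ribosomes are built in the nucleolus. RNA polymerase I, recruited with the help of Ubtf and Tcof1, transcribes the long precursor of the ribosomal RNAs. Small nucleolar RNAs then guide its chemical modification, in box C/D particles that methylate ribose (Fbl, Nop56 and Nop58) and in box H/ACA particles that convert uridine to pseudouridine (Dkc1, Gar1, Nhp2 and Nop10). Separate sets of factors cut and fold the precursor into the large and the small subunit, and most of these genes are known to be active in growing and dividing cells.

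Sequences before the transcription start are shown first for 3 of the 5 genes that passed the test below, those with 1 start in a RefSeq promoter table of build GRCm38.p6. Promoter windows of 300 bases (250 before and 50 after the start) were matched for 31 of the 37 genes. The 120 bases directly before the start are printed 5′ to 3′ on the strand of the gene, for Ncl at chr1:86359456-86359575 (minus strand), for Nop56 at chr2:130274292-130274411 (plus strand) and for Pno1 at chr11:17211590-17211709 (minus strand). Capitals mark the CCAAT box, the letters CCAAT or, on the other strand, ATTGG.
Ncl: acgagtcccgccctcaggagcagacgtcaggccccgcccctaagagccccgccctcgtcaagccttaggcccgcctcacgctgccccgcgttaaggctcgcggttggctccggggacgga
Nop56: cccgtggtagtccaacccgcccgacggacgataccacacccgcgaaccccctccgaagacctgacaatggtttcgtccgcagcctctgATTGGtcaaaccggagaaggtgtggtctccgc
Pno1: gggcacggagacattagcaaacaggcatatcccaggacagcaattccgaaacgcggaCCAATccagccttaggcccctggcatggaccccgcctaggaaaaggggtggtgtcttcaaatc
A CCAAT box on either strand was in the windows of 11 of the 31 genes (35.5%), against 42.5% of the 5444 tested genes with a window. The stretch of Ncl holds no CCAAT box and is 71.7% G or C.

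The E-box CACGTG, the letters bound by Myc and other helix-loop-helix leucine zipper proteins, was searched in the same windows because Myc is known to act on ribosome assembly genes. It was in the windows of 6 of the 31 genes (19.4%), against 11.8% of the 5444 tested genes. Counted by window, since a gene can have several, it was in 15.8% of the 38 windows of these genes and 7.15% of all 32851 windows in the table. The whole table is an unlike background, with a median of 52.7% G or C. The median was 59.5% for windows of these genes and 60.3% for those of all genes tested. The motif reads the same on both strands. Each match is shown in 30 bases with the E-box in capitals, for Imp4 at chr1:34439696-34439725 (plus strand), Nop2 at chr6:125131811-125131840 (plus strand), Pes1 at chr11:3963965-3963994 (plus strand), Pno1 at chr11:17211540-17211569 (minus strand), Tsr1 at chr11:74898092-74898121 (plus strand) and Wdr43 at chr17:71616220-71616249 (plus strand).
Imp4: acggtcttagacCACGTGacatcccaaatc
Nop2: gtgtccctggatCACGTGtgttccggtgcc
Pes1: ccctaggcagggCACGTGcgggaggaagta
Pno1: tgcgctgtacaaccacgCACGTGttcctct
Tsr1: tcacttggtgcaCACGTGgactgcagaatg
Wdr43: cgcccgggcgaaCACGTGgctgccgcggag
In Imp4 and Nop2 the E-box began 121 and 60 bases before the start, and in the other 4 genes it lay 3 to 38 bases into the transcribed part. Of the 6 genes, Pno1 was called in the comparison of the regions and the other 5 were not. The ETS motif CCGGAAG, searched on both strands, was in the windows of 9 of the 31 genes (29%), against 19% of the tested genes. By window the shares were 23.7% for these genes and 8.86% in the whole table, which is less rich in G or C. A match gives the letters in the window and not a bound site.

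The genes were compared between the regions with limma, fitted to all 9316 probe sets tested. A gene was called at an adjusted p under 0.05 over that whole table, and it was counted by its probe set with the highest mean log2 signal. Wdr12 was too dim to be tested, which left 36 genes. As a guide to background, the 95th percentile of the signals of bacterial and yeast control probes was 147, called the control level below. Of these, 5 were called higher in branching (Ubtf, Tcof1, Ncl, Nop56 and Pno1), none was called lower, and 31 did not pass. That is 13.9% of the 36, beside 2.32% of all 6798 genes tested in either direction with 1% of them called higher and 1.32% called lower. The background stands beside the count only for scale, since the same comparison was known when the genes were listed. It is also an unlike background, dimmer and more variable than the 36 genes. The median signal was 953 for the 36 genes and 429 for all genes tested. The median SD within a region was 0.18 and 0.29 (log2). The part of this in the share of calls was not tested. The difference was above 0 for 31 of the 36 genes, against 49% of all genes. The median log2 difference (branching minus non-branching) was 0.24, a 1.18-fold level, against -0.01 for all genes tested. In tissue samples like these, fewer cells of a type and less RNA per cell cannot be told apart.

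**Figure D1:**
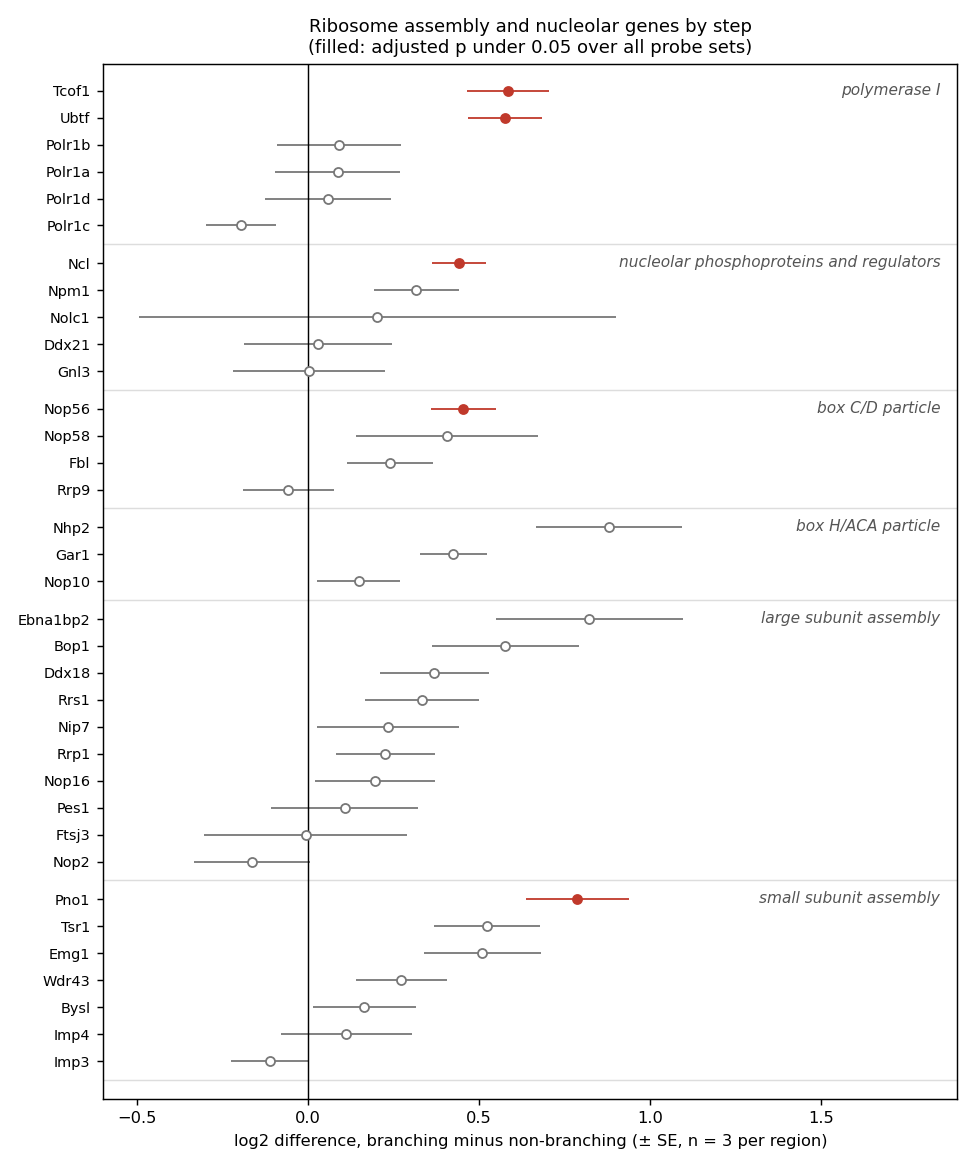
Log2 difference between branching and non-branching for each ribosome assembly and nucleolar gene whose mean was above the control level in at least 1 region, grouped by step; points are the estimates, bars the standard errors of the limma fit (n = 3 per region), and filled points the called genes. Of the 35 genes drawn, 30 lie above 0, and the 5 called genes lie between 0.44 (Ncl) and 0.79 (Pno1).

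Polymerase I transcription was represented by the subunit genes Polr1a, Polr1b, Polr1c and Polr1d and by 2 factors that act with the enzyme. The 2 factors were called and the 4 subunit genes were not. Ubtf (Entrez gene 21429) encodes the upstream binding factor, which coats the ribosomal DNA. Its signal was 2512, 2150.4 and 2325 on branching replicates 1 to 3 and 1609, 1585 and 1486 on non-branching replicates 1 to 3. The 2 regions did not overlap, and the log2 difference was 0.58 ± 0.11 (SE, n = 3 per region, limma adjusted p = 0.0290). Tcof1 (Entrez gene 21453) encodes treacle, a nucleolar scaffold that binds Ubtf and the polymerase. It read 1892, 1866 and 2066 in branching and 1401, 1329.6 and 1159.7 in non-branching. Again every branching array lay above every non-branching array, with a log2 difference of 0.59 ± 0.12 (SE, n = 3 per region, limma adjusted p = 0.0425).

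The polymerase subunits themselves differed by -0.20 to 0.09 with SEs of 0.10 to 0.18, and were not tested against Ubtf and Tcof1. Polr1a, the largest subunit, averaged 649.8 ± 35.8 over the branching and 618 ± 116 over the non-branching arrays (SD, n = 3), and Polr1b, the second largest, read by a less specific probe set, 1042 ± 62.7 and 996 ± 243. Their log2 differences were 0.09 ± 0.18 and 0.09 ± 0.18 (SE). Polr1c and Polr1d are subunits that polymerase I shares with polymerase III. Polr1c read 1763, 1808 and 1771 in branching and 2122, 1917 and 2087 in non-branching. It was the 1 gene of the 36 whose branching arrays all lay below the non-branching arrays, as did those of 11.7% of all genes tested, and its difference of -0.20 ± 0.10 did not pass (adjusted p = 0.426). Polr1d differed by 0.06 ± 0.18, and its other tested probe set, less specific and under the control level on all 6 arrays, had the opposite sign (adjusted p = 0.845).

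Among nucleolar proteins with several roles, Ncl (Entrez gene 17975) was called. It encodes nucleolin, an RNA binding protein of the precursor. It read 15823, 14215 and 14388 in branching and 10889, 10705 and 11064 in non-branching. The lowest branching array was above the highest non-branching array, and the log2 difference was 0.44 ± 0.08 (SE, n = 3 per region, limma adjusted p = 0.0229). Npm1 encodes nucleophosmin, a chaperone of the outer nucleolar layer. It read 18504, 18031 and 20481 in branching and 18472, 13108 and 14636 in non-branching, so that non-branching replicate 1 lay within the branching range. Its difference of 0.32 ± 0.12 did not pass (adjusted p = 0.280), and without non-branching replicate 2 it was 0.21.

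The other 3 genes of this group differed by 0.00 to 0.20 and overlapped between regions. Gnl3 (nucleostemin, a nucleolar GTPase of stem and dividing cells) averaged 794 ± 178 over the branching and 796 ± 188 over the non-branching arrays (SD, n = 3). Ddx21, an RNA helicase, had 802 ± 247 and 765 ± 75.2. Nolc1, a phosphoprotein that binds small nucleolar particles, was read near the control level, from 66.9 to 223 in branching and from 44.1 to 219 in non-branching, with an SE of 0.70 that leaves its difference unresolved.

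Of the box C/D proteins, the scaffold gene Nop56 (Entrez gene 67134) was called. It read 3173, 2935 and 3061 in branching and 2349, 2199 and 2146 in non-branching. The regions did not overlap, and the log2 difference was 0.45 ± 0.10 (SE, n = 3 per region, limma adjusted p = 0.0480). Its partner Nop58, on a less specific probe set, had means of 506 ± 88.0 and 389.6 ± 116 (SD, n = 3), and its difference of 0.41 ± 0.27 missed the threshold (adjusted p = 0.544). Fbl encodes fibrillarin, the methyltransferase of the particle. It read 4479, 5278 and 5264 in branching and 3541, 4662 and 4585 in non-branching, and branching replicate 1 lay below 2 of the non-branching arrays (0.24 ± 0.13, adjusted p = 0.435). Without non-branching replicate 1 the difference of Fbl was 0.11, and without branching replicate 1 it was 0.32. Rrp9, the protein specific to the U3 particle, differed by -0.06 ± 0.13 (adjusted p = 0.891).

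The box H/ACA group had the highest median difference of the 6 groups, 0.43, over 3 tested genes. None of the 3 was called by limma, while 2 (Gar1 and Nhp2) had an unadjusted p under 0.05, as did 15.6% of all genes tested. Nhp2, a core protein that contacts the guide RNA, read 2891, 2151 and 2304 in branching and 1889, 1087 and 1119 in non-branching. The regions did not overlap, but non-branching replicate 1 lay well above the other 2, and the difference of 0.88 ± 0.21 did not pass (adjusted p = 0.0777). Without that array the difference was 1.14 and the adjusted p 0.0174, and in the other 5 omissions the adjusted p ran from 0.124 to 0.252. Gar1, which helps release the modified RNA, read 3124, 3295 and 3035 in branching and 2196, 2356 and 2496 in non-branching, without overlap, with a difference of 0.43 ± 0.10 (adjusted p = 0.0659). Nop10, the smallest core protein, read 2984, 3295 and 3550.2 in branching and 2973, 2587 and 3340.1 in non-branching. Its ranges overlapped and its difference was 0.15 ± 0.12 (adjusted p = 0.640). Leaving out non-branching replicate 2 gave 0.05, leaving out branching replicate 3 gave 0.09, and leaving out non-branching replicate 3 gave 0.24.

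**Figure D2:**
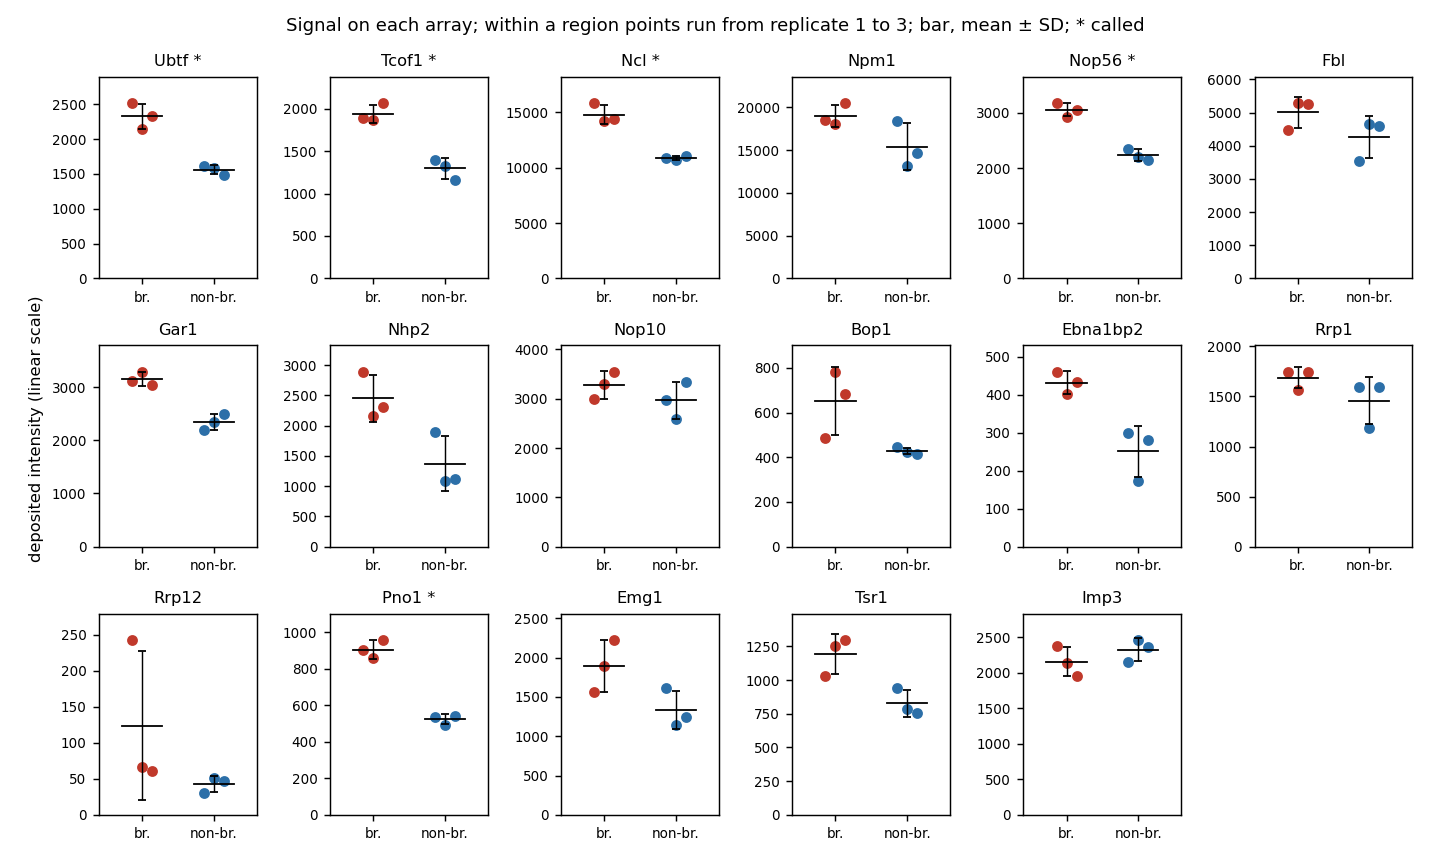
Deposited intensity (linear scale from 0) on each array for 17 genes: those called (asterisk), the 12 with the largest difference in size, and the brightest of each step; red points are branching replicates 1 to 3 and blue points non-branching replicates 1 to 3, from left to right, with the mean and SD in black. Ubtf, Tcof1, Ncl, Nop56 and Pno1 show no overlap between regions. Gar1, Nhp2, Bop1, Ebna1bp2, Rrp12 and Tsr1 show none either but were not called, whereas Npm1, Fbl, Nop10, Rrp1, Emg1 and Imp3 overlap.

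For the large subunit, 10 genes were tested and none was called by limma, while 3 had an unadjusted p under 0.05. Their median difference was 0.23. Ebna1bp2, a factor of early large-subunit precursors, read 461, 402 and 433 in branching and 299, 174 and 279.8 in non-branching. The regions did not overlap, and its difference of 0.82 ± 0.27 did not pass (adjusted p = 0.199). Bop1 and Pes1 encode partners in 1 complex that also holds Wdr12. Bop1 read 485, 783 and 683 in branching and 445, 423 and 416 in non-branching, a difference of 0.58 ± 0.22 (adjusted p = 0.253) on values that did not overlap. A less specific probe set of Bop1, with a mean of 143 over the 6 arrays, under the control level, had the opposite sign (adjusted p = 0.852). Pes1 had means of 418 ± 35.9 and 389.6 ± 55.4 (SD, n = 3) and differed by 0.11 ± 0.21. Wdr12 was at or under the control level on all 6 arrays, at 62.9, 135 and 66.1 in branching and 18.7, 16.7 and 32.6 in non-branching, and no fold is given for it.

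The other 7 genes of the large subunit differed by -0.16 to 0.37. Ddx18, an RNA helicase, had means of 899.8 ± 106 and 695 ± 71.0 (SD, n = 3) without overlap, and its 2 probe sets differed by 0.37 and 0.41 (adjusted p = 0.336 and 0.390). Rrs1, which works with the 5S RNA particle, had 879 ± 108 and 697 ± 86.1. Rrp1, a factor of precursor processing, read 1749, 1569.7 and 1748 in branching and 1592, 1184 and 1591 in non-branching (0.23 ± 0.14, adjusted p = 0.529), and branching replicate 2 lay below 2 of the non-branching arrays. Without non-branching replicate 2 the difference of Rrp1 was 0.08, and without non-branching replicate 1 it was 0.30. Nop2, an RNA methyltransferase, had a lower mean in branching, 883 ± 68.9 against 999.6 ± 186, a difference of -0.16 ± 0.17 (adjusted p = 0.731). Nop16, read by less specific probe sets, differed by 0.20 on the brighter and 0.55 on the dimmer one (adjusted p = 0.679 and 0.206). Nip7 differed by 0.23 ± 0.21, and Ftsj3, another RNA methyltransferase, by -0.01 ± 0.30.

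For the small subunit, Pno1 (Entrez gene 66249) was called and had the largest difference of the 5 called genes. It encodes an RNA binding protein of late small-subunit precursors that works with the nuclease Nob1, and its start region is printed above. It read 899.6, 856 and 958 in branching and 537, 492 and 543 in non-branching. The lowest branching array stood well above the highest non-branching array, and the log2 difference was 0.79 ± 0.15 (SE, n = 3 per region, limma adjusted p = 0.0312). Tsr1, a GTPase-like factor of the same late precursors, read 1027, 1255 and 1299 in branching and 944, 785 and 759 in non-branching. It did not overlap but did not pass (0.52 ± 0.15, adjusted p = 0.143). Emg1, an RNA methyltransferase, read 1567, 1895 and 2226 in branching and 1607, 1148 and 1242 in non-branching. Here branching replicate 1 lay below non-branching replicate 1, and the difference was 0.51 ± 0.17 (adjusted p = 0.201).

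The remaining genes of the small subunit differed less or were dim. Wdr43, a subunit of the early processome, had means of 1157 ± 101 and 957 ± 62.9 (SD, n = 3) without overlap, a difference of 0.27 ± 0.13 (adjusted p = 0.390). Imp3 and Imp4 encode proteins of the U3 particle. Imp3 read 2372, 2135 and 1958 in branching and 2153, 2463 and 2361 in non-branching, with overlap and a difference of -0.11 ± 0.11 (adjusted p = 0.725). Leaving out branching replicate 3 gave -0.05, leaving out non-branching replicate 2 gave -0.07, and leaving out branching replicate 1 gave -0.18. Imp4 differed by 0.11 ± 0.19 and Bysl, a factor of small-subunit maturation read by a less specific probe set, by 0.16 ± 0.15. Rrp12, which helps export precursors, read 243 on branching replicate 1 but 66.8 and 61.3 on the other branching arrays and 30.8, 50.9 and 46.3 in non-branching. Both of its means lay under the control level, so no difference is given, although it is counted among the 36 genes tested. Without it 30 of 35 genes were above 0 and the median was 0.23.

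The 5 calls were near the threshold and rested on all 6 arrays. With 1 array left out the adjusted p of limma ran from 0.0560 to 0.139 for Ubtf, from 0.0589 to 0.177 for Tcof1, from 0.0680 to 0.192 for Nop56 and from 0.0671 to 0.144 for Pno1, so these 4 passed in none of the 6 omissions. Ncl passed without branching replicate 1 (adjusted p = 0.0410) and ran from 0.0505 to 0.107 in the other 5. The differences kept their sign and moved little, for Ubtf from 0.52 to 0.63 and for Pno1 from 0.74 to 0.83. With a variance that did not depend on signal none of the 5 passed, with adjusted p from 0.121 (Pno1) to 0.299 (Ncl), and with dim probe sets kept in the table Pno1 alone passed (adjusted p = 0.0394).

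The genes did not all follow region in the same way on each array. In 13 of the 36 genes (36.1%) the 3 branching arrays lay above the 3 non-branching arrays, including the dim Rrp12, against 10.2% of all genes tested. All genes tested are dimmer and more variable than the 36 genes, as given above. Relative to each gene's mean over the 6 arrays, the median of the 36 genes was 0.05, 0.17 and 0.21 (log2) on branching replicates 1 to 3 and -0.06, -0.22 and -0.18 on non-branching replicates 1 to 3. Of the pairs that set a branching against a non-branching array, the 2 replicates numbered 1 were thus the closest by this median. On branching replicate 1, 19 of the 36 genes were above their own mean, against 28 and 29 on the other branching arrays. Non-branching replicate 1 was the highest of the non-branching arrays in 21 of the 36 genes (58.3%), among them Npm1, Nhp2, Emg1 and Tsr1, whereas it was the highest in 34.1% of all genes tested. For Fbl and Gar1 it was the lowest instead.

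**Figure D3:**
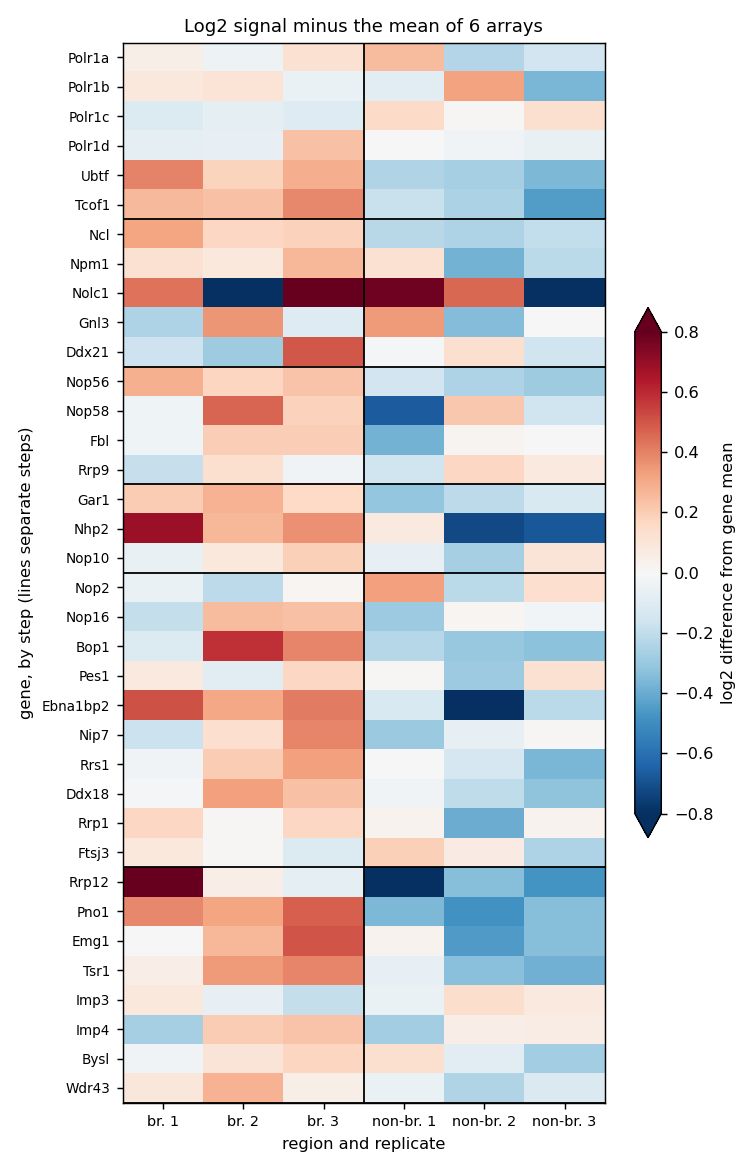
Log2 signal (floor of 16) of the 36 tested genes on each array minus the gene's mean over the 6 arrays, in red where above and in blue where below, with black lines between steps and between regions; colours saturate beyond 0.8. Branching replicate 1 has the fewest genes above their mean of the branching columns, 19 of 36, and Nolc1 changes sign between replicates of the same region.

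By step, the median on the arrays separated the regions for polymerase I, box H/ACA and small-subunit genes. For box H/ACA genes it was 0.20, 0.26 and 0.19 in branching and -0.06, -0.26 and -0.12 in non-branching. For small-subunit genes it was 0.07, 0.23 and 0.20 against -0.06, -0.29 and -0.31. For box C/D genes it was -0.04, 0.18 and 0.19 against -0.27, 0.09 and -0.08, so that branching replicate 1 lay below non-branching replicate 2. For large-subunit genes branching replicate 1 and non-branching replicate 1 were level, both at -0.02.

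Several of these genes hold small nucleolar RNA genes inside their own span in the RefSeq annotation (GRCm38.p6), a feature that played no part in listing them. This was so for 6 of the 37 genes (16.2%), against 2.02% of 6790 genes tested with a RefSeq gene. Nop56 held 5, among them Snord57 and Snord110. Nop58 held 4, among them Snord11 and Snord70. Gnl3 and Wdr43 held 3 each, Ncl held Snora75 and Snord82, and Tsr1 held Snord91a. Of these 6 hosts, Ncl and Nop56 were called. Probe sets for the host messenger RNA do not measure the small RNAs. Where a gene had a second tested probe set, its difference had the same sign in 7 of 9 cases, the exceptions being Polr1d and Bop1.

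A further list of 133 ribosome assembly genes outside the 40 included genes whose roles are not limited to ribosome assembly. Polr2e, Polr2f, Polr2h, Polr2l, Ruvbl1, Ruvbl2 and exosome genes were among them. The list was read for 78 genes, of which 73 were tested. None was called by limma, while 11 had an unadjusted p under 0.05 with higher signal in branching and 2 with lower, together 17.8% against 15.6% of all genes tested. The difference was above 0 for 56 of the 73 (76.7%), against 49% of all genes tested, and the median was 0.21, beside 0.24 for the genes above. This list too was chosen with earlier results of these data known, so it is no independent check. Of the 4 with the largest difference, Ltv1, an adaptor of small-subunit export, averaged 457 ± 91.8 over the branching and 267 ± 34.4 over the non-branching arrays (SD, n = 3), a difference of 0.76 ± 0.25 (adjusted p = 0.192). Exosc10, a nuclease of the exosome, was at 129.8, 292 and 77.1 in branching and 47.8, 50.7 and 56 in non-branching. Surf6 had 246, 137 and 240.3 against 121, 80.6 and 121, and Nvl, a large-subunit ATPase read by a less specific probe set, had 152, 75.4 and 45 against 153, 230.2 and 182. Exosc10 and Surf6 were under the control level on all 3 non-branching arrays. Exosc10 was also under it on 2 of 3 branching arrays, Surf6 on branching replicate 2, and Nvl on 2 of 3 branching arrays.

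**Figure D4:**
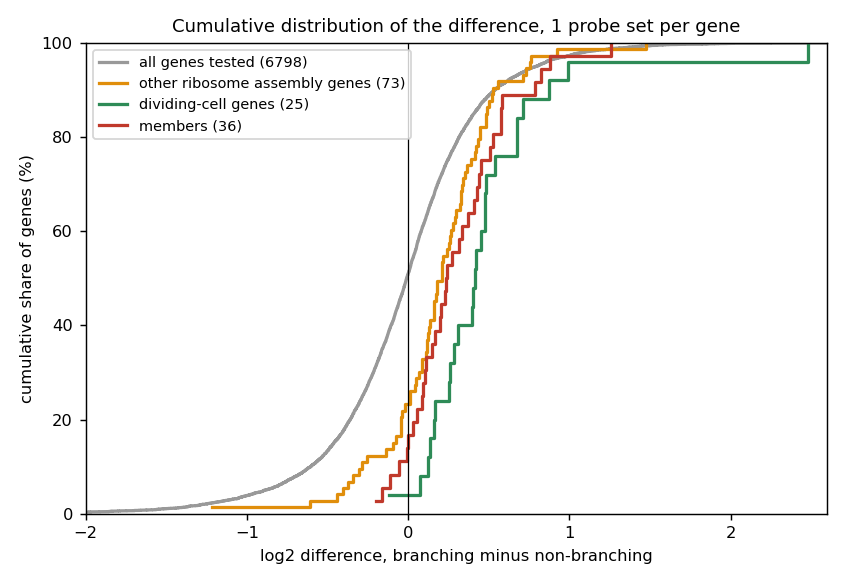
Cumulative share of genes (%) against the log2 difference between branching and non-branching, 1 probe set per gene, for all genes tested, the 36 listed genes, the 73 other ribosome assembly genes and 25 genes of dividing cells. All 3 lists run to the right of the curve for all genes, with medians of 0.24, 0.21 and 0.42. The lists were chosen with earlier results of these data known.

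Other markers moved with the region on the same arrays. Of 25 genes of dividing cells tested, 24 were above 0 (median 0.42), 3 were called higher (Rrm2, Pcna and Mybl2), none was called lower, and 1 of the 26 on the array was under the control level throughout. The summed signal of that list ran from 50448 to 54180 in branching and from 39425 to 40712 in non-branching. Red blood cell genes had 8 of 9 above 0 (median 0.45) and 3 called higher, the globin genes Hba-x, Hba-a1 and Hbb-y. The summed signal, most of it from these 3, was 137824 to 152640 against 88870 to 96465. Klf1 was the gene under 0 (-0.48 ± 0.62, with overlap), and 2 of the 11 on the array were under the control level throughout. Hbb-bh1, Alas2, Gata1 and Nfe2 were above 0 but overlapped between regions (limma adjusted p from 0.619 to 0.913). Slc4a1 did not overlap and did not pass (0.88 ± 0.19, limma adjusted p = 0.0526). Lung mesenchyme genes had 6 of 9 called lower (median -0.93). Their sums, with Col1a1 and Col1a2 the brightest of the list, were 17233 to 17558 against 32916 to 33950.4. The mesenchymal gene Foxf1 went the other way, with means of 572 in branching and 244 in non-branching. Its regions did not overlap, and its difference of 1.42 ± 0.42 did not pass (limma adjusted p = 0.145). Smooth muscle genes had 5 of 7 called lower (sums of 7091 to 7672 against 12478 to 13577). Epithelial genes had none of 13 called by limma, with 2 higher (Sftpc and Cldn6) and 3 lower (Sox2, Foxa2 and Id2) at an unadjusted p under 0.05. Their median was 0.06, with sums of 10554 to 11267 against 10108 to 11148. Cardiac genes had 2 of 8 called lower (median -0.48), endothelial genes 1 of 9 (median -0.37) and neuronal and neural crest genes 1 of 6 (median -0.03). Of 5 leukocyte genes tested none was called by limma and none had an unadjusted p under 0.05. Their median was 0.49. In 3 of the 5 (Mpo, Csf1r and Coro1a) every branching array lay above every non-branching array, as in 10.2% of all genes tested. The other 2, Cd68 and Laptm5, overlapped and had lower means in branching (differences of -0.56 and -0.41). Of the 3 non-branching arrays, 1 was above the control level for Mpo and 2 for Coro1a. The summed leukocyte signal ran from 1936 to 2082 in branching and from 1748 to 1903 in non-branching, with 4 of the 9 genes on the array at or under the control level throughout. The part of any of these cell types in the differences of the ribosome assembly genes was not tested.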

How the data were processed

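Per the labels, total RNA from 2 regions of the E11.5 lung was measured, with 3 arrays for each. The deposited values are 1 intensity per probe set and array on a linear scale. The authors' steps are not given in the sources used here. By the values alone, each array had a mean of 500.3 without its lowest and highest 2%, and this scaling was kept. Of 12488 probe sets, 66 controls were left out, 10833 had 1 symbol, 396 several and 1193 none. All 37 listed genes on the array matched a RefSeq gene of the same symbol.

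Values under 16 were set to 16 and log2 was taken. After removal of the dimmest 25% by mean log2 signal, 9316 probe sets were fitted in R 4.3.3 using limma 3.58.1 (lmFit with region as the factor, eBayes with a variance trend, two-sided, Benjamini-Hochberg over all probe sets). The code was tested on simulated data. As the control level, 147, the 95th percentile was taken over 19 bacterial and yeast control probe sets (114 values). No detection calls were used. The number of arrays limits the precision.

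The genes, the gene lists and the rule for naming were chosen with earlier results of these data known. Values on every array are given for genes called, the 12 with the largest difference and the brightest of each step, and for others where a sentence turns on them. Of the other ribosome assembly genes, those called and the 4 with the largest difference are named. Alternatives tried were a block for the replicate number, centring on the median, quantile normalization, other filters and floors, no variance trend, array weights, the mean of a gene's probe sets and leaving out each array. The labels do not say whether arrays with the same replicate number were paired. Deviations from the region means correlated at -0.00, 0.02 and -0.02 across 6798 genes for arrays with the same number. For arrays with different numbers they correlated at -0.05 to 0.05. With 3 arrays per region these values cannot settle whether the samples were paired.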

Additional observations from a re-analysis of the deposited data

How the results depend on the processing

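The median difference of the listed genes was 0.24, and it ran from 0.23 to 0.27 over the alternatives and from 0.20 to 0.32 with 1 array left out. With equal numbers of arrays per region, the replicate block and the variance trend cannot change a difference. The list was drawn up with this comparison known, so a median above 0 is no support for a claim about the group. The same 5 genes were called under quantile normalization, with the dimmer 50% left out, a floor of 64, 16 added, array weights and the mean of a gene's probe sets, and 4 with centring on the median, which lost Nop56 (adjusted p = 0.0567). There was 1 call without a filter on dim probe sets, 0 without the variance trend, and 0 to 1 with 1 array left out. With the replicate block in limma there was 1 call, Nhp2 (adjusted p = 0.0358), and none of the 5. Whether samples with the same number belong together is not known. Over all probe sets 189 were called, against 255 with the dimmer 50% left out, 250 with array weights, 214 with a floor of 64, 198 with quantile normalization, 196 with 16 added, 167 with centring, 114 with the replicate block, 100 without the filter, 22 without the variance trend and 61 to 150 with 1 array left out. Of the other ribosome assembly genes 2 were called higher with the dimmer 50% left out, 0 whichever array was left out and 0 in the other alternatives. With the variance trend or the filter removed, the cause of the lost calls was not tested. Signals near the control level limit Nolc1, Rrp12 and Wdr12.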
